A study of Rattus norvegicus with 20 samples.

Results

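The mir-199a and mir-214 cluster of the rat was followed through a small RNA sequencing survey of tissues and serum. Its members were taken by name from the miRBase lists in the data: the precursors listed as rno-mir-199a and rno-mir-214, 2 of 444 precursors, and their listed mature arms miR-199a-5p, miR-199a-3p and miR-214-3p, 3 of 577 mature miRNAs. The rats were male, of the Long Evans strain and 35 days old, had no treatment and had not been given alcohol. Of the 20 libraries, 3 were whole brain hemispheres each run by itself, 3 were serum, and the other 14 were each from a further tissue, namely fat, heart, kidney, large intestine, liver, lung, muscle, pancreas, skin, small intestine, spleen, stomach, testes and thymus. The fat was subcutaneous abdominal fat and the muscle skeletal muscle. Each of the 14 held RNA pooled from 3 rats. A pool therefore has no replicate, and counting error is the only error that can be given for it. The 3 hemispheres are 3 libraries of a single tissue. The survey addressed from which tissues serum miRNAs may come.

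A miRNA gene is transcribed as a hairpin, the precursor, from which a mature strand can be cut out of either arm, the 5p or the 3p arm. Bases 2 to 8 of the mature strand, the seed, pair with target messenger RNAs and lower their output. mir-199a and mir-214 lie close together on the same strand, inside the Dnm3 gene but opposite to its direction, and in mouse and human they are cut from a shared long transcript named Dnm3os. They are known as miRNAs of mesenchymal cells such as fibroblasts and smooth muscle cells, with roles in skeletal development and fibrosis.

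The mature sequences below show what was counted, with the seed in capitals. They come from the RefSeq table of the rat build GRCr8, read 5′ to 3′.
miR-199a-5p: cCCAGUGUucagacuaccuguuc
miR-199a-3p: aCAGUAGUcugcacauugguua
miR-214-3p: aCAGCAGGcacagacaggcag
miR-214-5p: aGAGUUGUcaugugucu
On the plus strand of chromosome 13, miR-199a-5p lies at chr13:77116255-77116277 and miR-199a-3p at chr13:77116294-77116315, with 16 bases between them. RefSeq lists a single rat mir-199a gene under the symbol Mir199a2. The gene table gives gene spans without exons, and the span of Dnm3, on the minus strand, was the only span of a protein coding gene that held both hairpins. The mir-214 hairpin starts 5329 bases after miR-199a-3p. The 4 seeds all differ, and no other mature miRNA in the table carries any of them, so no further miRNA was added to the set by its seed. Of the 577 mature miRNAs in the data, 534 were found in that table under the same name. miR-214-5p is in RefSeq with a length of 17 bases, and no mature value was analysed for it here.

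The mir-214 hairpin carries a second miRNA gene on its other strand. Mir3120 is read from the minus strand, and 106 of the 108 bases of the mir-214 hairpin are identical to the reverse complement of the mir-3120 hairpin. The hairpin at chr13:77121645-77121752, plus strand, is shown because the reads of the pair meet in it. Capitals mark, in order, the window opposite miR-3120, bases 28 to 48, and miR-214-3p, bases 69 to 89.
mir-214 hairpin: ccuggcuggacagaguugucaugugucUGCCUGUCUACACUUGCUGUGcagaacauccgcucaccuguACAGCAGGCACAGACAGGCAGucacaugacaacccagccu
miR-3120, minus strand, seed in capitals: cACAGCAAguguagacaggca
Whether the authors' counting used the strand is not given in the sources used here, so a read in this hairpin may have come from either gene.

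Levels are given as RPM, which scales the reads of a miRNA to the total counted on the same annotation, precursors and mature miRNAs apart. The precursor totals were 388275 to 1204552 reads in brain, 162080 to 3685761 in the pools and only 7556 to 10862 in serum. A level of 3 reads was therefore worth 2.49 to 7.73 RPM in brain, 0.814 to 18.5 RPM in the pools and 276 to 397 RPM in serum. Wilson intervals at 95% are given for single libraries, and they and the limits of 3 reads cover counting error only. Tissue labels were checked against marker miRNAs. Brain had the highest mir-124 and mir-9a levels, heart the highest mir-208a, muscle the highest mir-206, skin the highest mir-203a and mir-205, and testes the highest mir-34c. The library labelled pancreas went against its label: the acinar miRNAs mir-216a and mir-217 were at 0 reads in it, while the hepatocyte miRNA mir-122 stood at 14862 RPM against 14726 RPM in liver. Left out of the pools, it moved the summaries used below as follows. The median pool was 14.2-fold above the brain mean in mir-199a, 12 of 294 precursors, 4.08%, had every hemisphere below every pool, and the summed pools were 18.4-fold above the summed hemispheres in mir-199a and 19.1-fold at the mir-214 locus. The share of the locus was then 0.876% and that of the 5p arm 5.68%, with a median of 6.14%, and the tests and likeness are given without it below.

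rno-mir-199a was found in all 20 libraries, and brain held the least of it. Its level was 7694 RPM in skin, 5932 in muscle and 5598 in fat. It was 3342 RPM in lung, 3049 in heart, 2241 in stomach, 2174 in spleen, 1755 in large intestine, 1686 in kidney, 1678 in testes and 1635 in small intestine. The lowest pools were pancreas with 798 RPM, liver with 686 and thymus with 524. These low pools rested on 161, 225 and 345 reads, and the pool with the most, lung, on 7993. Skin was thus 14.7-fold above thymus.

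The 3 hemispheres stood at 170, 188 and 103 RPM (205, 107 and 40 reads), a mean of 154 ± 44.6 RPM (SD, n = 3). Each hemisphere lay below each pool, and the lowest pool, thymus, was 2.79-fold above the highest hemisphere. Over the 17 tissue libraries, 11 of 294 precursors that passed the count filter, 3.74%, had every hemisphere below every pool, while 36.4% had every hemisphere above every pool. Brain was the lowest of the 15 tissues for 6.46% of these precursors. The median pool was 12.8-fold above the brain mean, and skin was 50.1-fold above it. The spread between tissues was not unusual in size. The fold from lowest to highest tissue, with 1 RPM added, was 49.8 for mir-199a against a median of 49.9 over the 294 precursors. In bulk tissue, fewer cells that make a miRNA and less miRNA per cell cannot be told apart.

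The serum libraries held 1456, 1197 and 883 RPM of mir-199a, a mean of 1178 ± 287 RPM (SD, n = 3). They lay above every hemisphere and above the pools of pancreas, liver and thymus, and below the other 11. That place among the pools depends on scaling. With DESeq2 size factors the serum libraries, at 523, 667 and 391, lay below all 14 pools, of which thymus with 1001 was the lowest, and with TMM, at 638, 642 and 332, below liver with 1231 and pancreas with 1652. They lay above every hemisphere under both. The RPM levels rested on only 11, 13 and 7 reads, and the interval of the lowest, 428 to 1821 RPM, spans the levels of 7 pools. In rank, mir-199a was 23rd in skin and 66th in thymus among the 444 precursors, 153rd to 168th in the hemispheres and 52nd to 70th in serum.

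**Figure D1:**
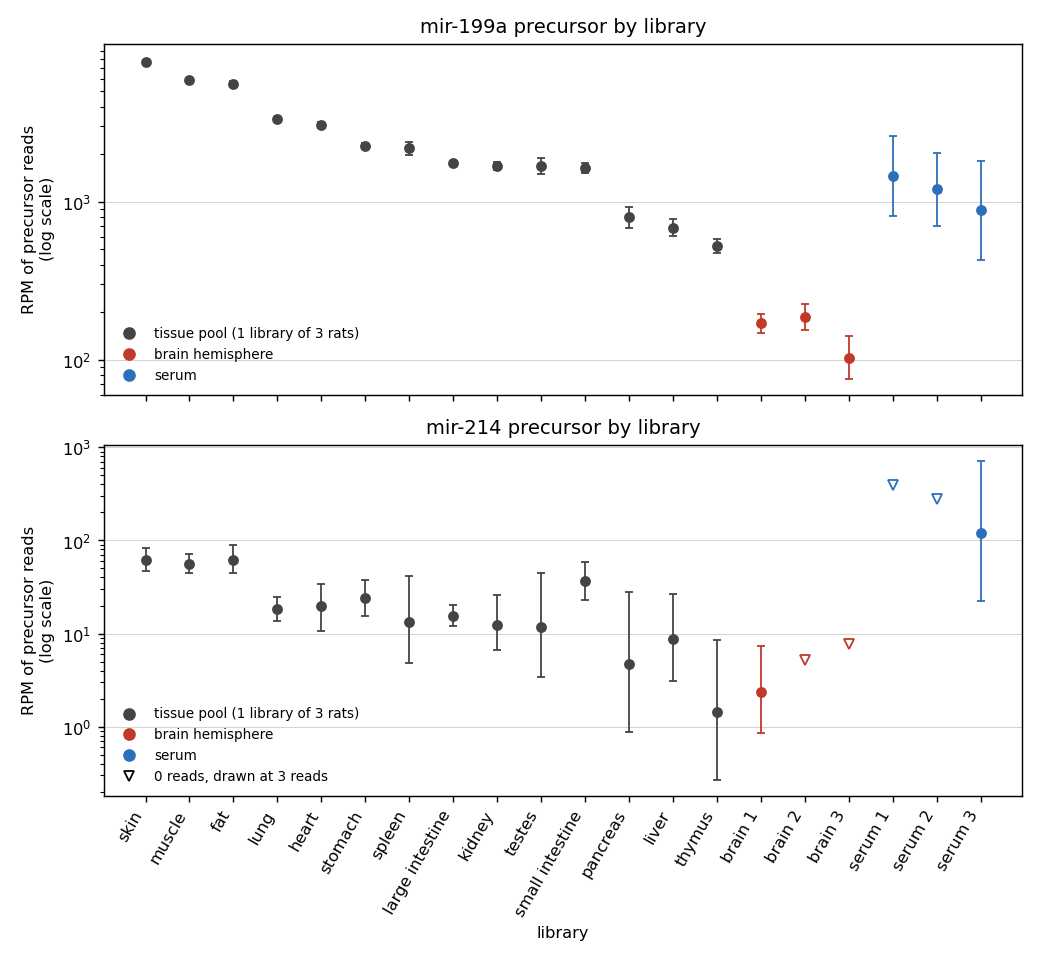
Precursor levels of mir-199a (top) and mir-214 (bottom) in RPM on log axes, with 95% Wilson intervals, by library. Pools are ordered by mir-199a, and open triangles mark libraries with 0 reads at the level of 3 reads. For mir-199a the hemispheres at 103 to 188 RPM sit below all 14 pools, which reach from 524 to 7694 RPM.

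Even by counting error alone, the order of the tissues was resolved only in parts. Going down the mir-199a levels of the 17 tissue libraries, 9 of 16 neighbouring pairs had intervals that did not overlap. Among these 9 were brain 1 and brain 3, which are of the same tissue. Intervals apart therefore do not by themselves set 2 tissues apart. The pairs that could not be separated by counting error were muscle and fat, stomach and spleen, pancreas and liver, the hemispheres 1 and 2, and the run of large intestine, kidney, testes and small intestine. Scaling moved the middle of the order. The smooth muscle miRNA mir-143 alone took 611902 RPM in stomach and 317438 RPM in large intestine, which lowers every other RPM there. With DESeq2 size factors, large intestine rose to 5604 and stomach to 4742, beside 7125 in skin, 6553 in muscle and 5932 in fat. With the totals taken without the 10 most abundant precursors, stomach stood at 11670, large intestine at 8509, skin at 18169 and fat at 13997. Skin stayed first and thymus stayed the lowest pool under TMM, DESeq2 size factors, these reduced totals and RefSeq counts, and brain lay below all 14 pools under each of these.

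rno-mir-214 was far scarcer than its neighbour, and its order of tissues was similar at the top. Its level was 62.3 RPM in fat, 62.1 in skin and 56.0 in muscle, then 36.6 in small intestine, 24.0 in stomach, 19.9 in heart and 18.3 in lung. It was 15.5 RPM in large intestine, 13.4 in spleen, 12.5 in kidney, 11.8 in testes, 8.72 in liver, 4.73 in pancreas and 1.45 in thymus. Muscle rested on 70.6 estimated reads, thymus and pancreas on 0.954 each. None of the 16 neighbouring pairs in this order had intervals apart, so the order is known only in outline. With TMM, DESeq2 size factors or the reduced totals, small intestine became the tissue with the highest mir-214.

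Brain was at 2.37, 0 and 0 RPM of mir-214, and a count of 0 allowed up to 5.26 and 7.73 RPM in those hemispheres. The first hemisphere lay above thymus and below the other 13 pools. Serum was at 0, 0 and 120 RPM, where the last value is a single read, and the serum libraries at 0 allowed up to 397 and 276 RPM. The serum level of mir-214 was therefore not resolved at this depth.

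The mir-214 counts were not whole numbers, because its reads were split with mir-3120. In each of the 16 libraries with reads at the locus, mir-214 held 95.36% and mir-3120 4.64% of their sum, and that sum was a whole number of reads within 4e-05. The split was the same in fat as in brain, so no separate mir-3120 level can be read from the precursor counts. Summed over the pools there were 329 reads at the locus, with 1 to 74 reads per pool, against 3 in brain and 1 in serum. Pools summed stood at 26.1 RPM (interval 23.4 to 29.1) and the hemispheres summed at 1.39 RPM (0.472 to 4.08), an 18.8-fold ratio with an exact counting interval of 6.39 to 91.8. For mir-199a the same ratio of summed reads was 18.2, with an interval of 16.4 to 20.3.

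Reads at the mir-214 locus followed those of mir-199a at a low share. Over the pools there were 37267 mir-199a reads, or 113 for each read at the locus, so the locus made up 0.875% of the reads of both (interval 0.786 to 0.974). The share was 0.981% in muscle, 0.919% in large intestine and 0.839% in skin, whose intervals overlap. Lung was low with 0.572% (0.429 to 0.762), 46 reads beside 7993. Small intestine was high with 2.30% (1.46 to 3.60), 18 reads beside 766. These were the only pools whose interval lay wholly to a side of the summed share. Thymus had the lowest share, 0.289%, from 1 read, with an interval up to 1.62%. Brain with 0.845% (0.288 to 2.45) could not be set apart from the pools.

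**Figure D2:**
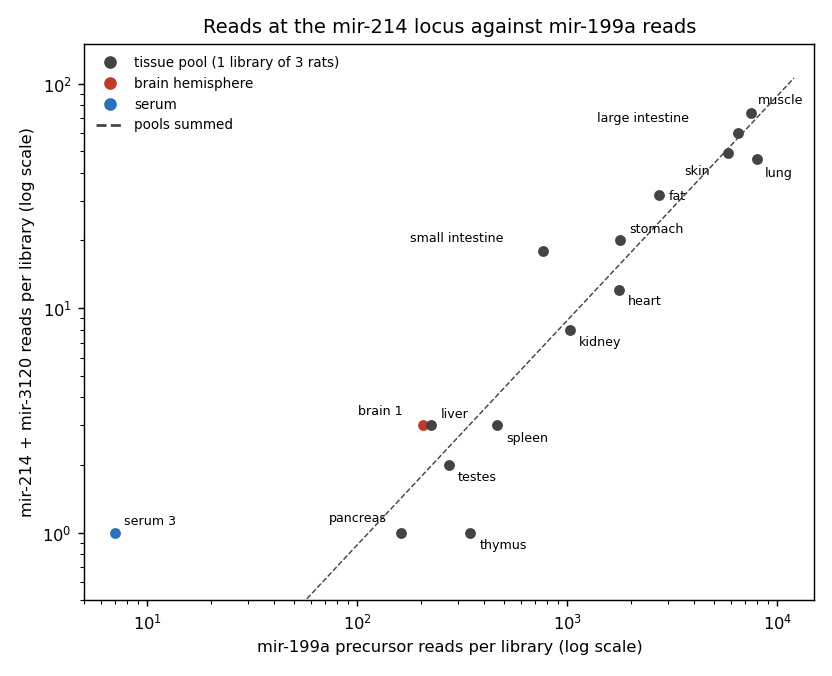
Reads at the mir-214 locus (mir-214 plus mir-3120) against mir-199a precursor reads, per library on log axes, for the 16 libraries with reads at the locus. The dashed line is the ratio of the summed pools, 113 mir-199a reads per locus read, with small intestine above it and lung and thymus below.

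Few of the locus reads reached a listed mature strand. miR-214-3p had 16 reads, spread over 7 pools, 7 of them in lung, and none in brain or serum. miR-3120 had 42 reads in 8 pools, with 14 in muscle, 11 in large intestine and 8 in skin. Together they covered 17.4% of the 333 locus reads, against 77.9% of the mir-199a precursor reads on its 2 listed arms. Where in the hairpin the remaining reads lay cannot be read from these counts. The ratio of mir-199a to mir-214 thus depends on what is counted. It was 119-fold on precursor reads in the summed pools and 1816-fold on mature reads.

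The mature reads of mir-199a came mostly from its 3p arm. miR-199a-3p was highest in skin with 8080 RPM of mature reads, followed by muscle with 6541 and fat with 6275, and lowest among the pools in thymus with 469. The hemispheres held 142, 181 and 88.6 RPM, all below every pool. miR-199a-5p was at 538 RPM in muscle, 529 in skin and 437 in fat, and at 28.3 RPM in thymus. The hemispheres had 4.90, 4.12 and 0 RPM of it (5, 2 and 0 reads), again below every pool. Brain was thus below the pools in both arms, in the 5p arm on few reads. Among precursors 3.74% had every hemisphere below every pool, and the share among mature miRNAs is not given here.

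In the summed pools 1647 of 29049 arm reads, 5.67% (interval 5.41 to 5.94), were 5p. The share per pool had a median of 6.06% and lay between 2.71% in spleen and 8.47% in liver. Both ends rested on few 5p reads, 10 of 369 in spleen and 16 of 189 in liver. Between pools with many reads the shares also differed. Lung had 2.96% (2.57 to 3.41), 187 of 6308 reads, and muscle 7.61% (6.95 to 8.32), 442 of 5811. Skin with 6.14% and large intestine with 5.79% lay between them. Lung thus had a low 5p level for its 3p level: 93.9 RPM of 5p beside 3075 RPM of 3p, where heart had 182 beside 2856. Such differences were not large beside those of other miRNAs. The log2 ratio of 5p to 3p reads ranged over 1.70 across the pools for miR-199a. The median range was 3.16 over 28 miRNAs with at least 100 arm reads in every pool. Of these 25 had a wider range than miR-199a, though some had nearly all reads on a single arm.

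In the hemispheres the 5p share was 3.33%, 2.22% and 0%, from 150, 90 and 29 reads. Summed it was 2.60% (1.27 to 5.27), an interval that lies below that of the summed pools but overlaps those of 9 of the 14, with muscle, stomach, fat, skin and liver above it. Serum had 3 of 11, 0 of 9 and 0 of 6 reads on the 5p arm. Brain and serum shares did not separate in a two-sided exact permutation test over the 6 libraries (p = 1.0, where the smallest p this design allows is 0.10).

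**Figure D3:**
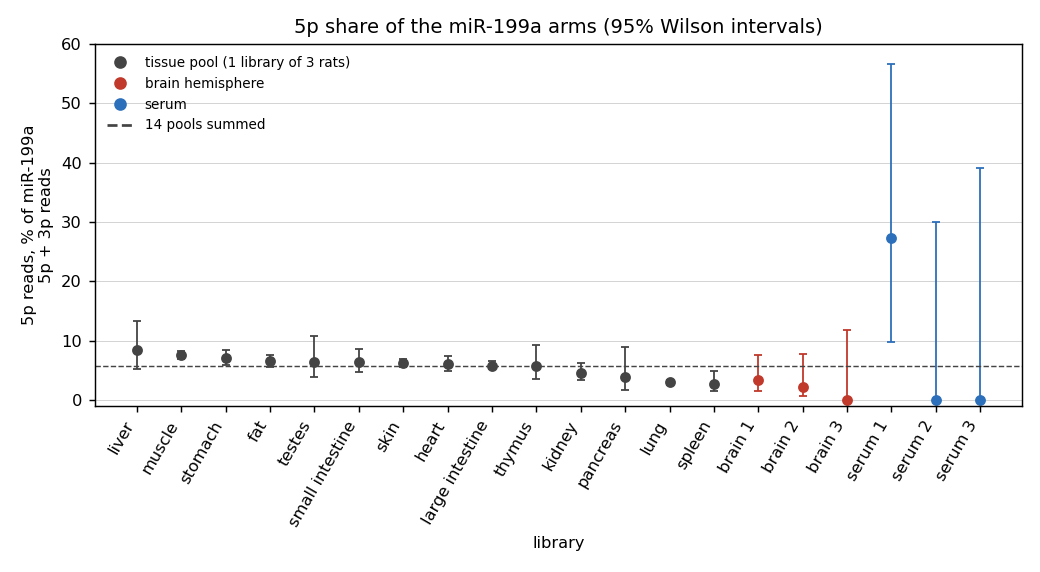
Share of miR-199a arm reads on the 5p arm, in percent with 95% Wilson intervals, by library. The dashed line is the share of the 14 pools summed, 5.67%, with muscle above it and lung and spleen below, and the serum libraries rest on 6 to 11 reads each.

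The 3 hemispheres were then tested against the 14 pools as 1 group, with the differences among tissues as the error. mir-199a and its 3p arm were lower in brain. With TMM scaling and the quasi-likelihood test of edgeR, mir-199a had a log2 fold change of -5.26 (SE 0.94, adjusted p = 0.00027). For mir-214 the fitted value was -5.38 (SE 1.30). With 2.86, 0 and 0 estimated reads in the hemispheres it passed the count filter through the pools alone, so it had to be low in brain once tested, and its value is a description. Of 295 precursors tested, 55 were lower in brain, 18.6%, and 71 were higher, 24.1%, and the median log2 fold change of all was 0.17. Ordered from the most negative log2 fold change, mir-214 was 25th and mir-199a 26th. The fitted fold is larger than the ratio of RPM medians because it compares group means on the TMM scale. With library totals alone the values were -4.17 for mir-199a and -4.39 for mir-214, with the median of all precursors at 1.20, and 24 precursors were lower and 123 higher. With DESeq2 the split was 119 lower and 68 higher.

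Of the arms, miR-199a-3p had a log2 fold change of -5.46 (SE 0.90, adjusted p = 9.7e-05) in edgeR. miR-199a-5p, with 5, 2 and 0 reads in the hemispheres, likewise passed the filter through the pools alone, and its fitted value of -6.73 (SE 1.23) is a description. Among 290 mature miRNAs, 70 were lower in brain, 24.1%, and 58 higher, 20%, and the median log2 fold change was -0.28. miR-214-3p had too few reads to be tested. Without the library labelled pancreas, mir-199a was at -5.38 and mir-214 at -5.51, miR-199a-5p at -6.82 and miR-199a-3p at -5.53. The 3 hemispheres are a single tissue set against a spread between tissues, so these p-values can be too small.

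Brain was also lower in mir-199a than serum, the only other group with replicates. From the levels given above, each serum library was above each hemisphere. The log2 fold change of brain over serum was -3.06 (SE 0.38, edgeR adjusted p = 2.4e-05), while the median over the 235 precursors tested was 2.15. Without hemisphere 1, 2 or 3 it was -2.15, -2.27 and -1.86, the last with an edgeR adjusted p of 0.0038 over the 68 precursors that could then be tested. Lower in brain were 44 precursors, 18.7%, against 105 higher, 44.7%. miR-199a-3p was at 1637, 1282 and 1106 RPM in serum, above all 3 hemispheres, with a log2 fold change of -2.89 (SE 0.39, edgeR adjusted p = 3.2e-08). The median over 212 mature miRNAs was 3.86, and 30 of them, 14.2%, were lower and 52.8% higher in brain. Uncalled ones such as miR-143-3p and miR-21-5p also had every hemisphere below every serum library. Such separation alone therefore sets no miRNA apart, and its share over all features is not given here. With at most 10862 precursor reads in serum, a feature could pass the count filter through the hemispheres alone. The medians and shares of this comparison therefore hold only for this depth and filter. mir-214 and miR-199a-5p had too few reads in the 6 libraries to be tested. On summed reads serum was 7.23-fold above brain in mir-199a (exact counting interval 4.84 to 10.5). The same hemispheres stood on the low side of both comparisons, which therefore are not independent.

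In RPM the serum mean of mir-199a, 1178, lay nearer to the pool median, 1965, than to the brain mean, 154. The fits on the TMM scale did not settle this. Brain over serum was at -3.06, and at -1.86 without brain 3, beside -2.55 for serum over the pools. mir-199a was lower in serum with a log2 fold change of -2.55 (SE 0.75, edgeR adjusted p = 0.019), close to the median of all 236 precursors tested, -2.18. Lower in serum were 40 precursors, 16.9%, and higher 5.93%. With 11, 13 and 7 reads in serum, mir-199a itself needed the pools to pass the count filter. At this serum depth a feature could also pass through the pools alone. The medians and shares of this comparison therefore hold only for this depth and filter. miR-199a-3p, with 8, 9 and 6 reads in serum, passed the count filter through the pools alone. Its fitted value of -2.76 (SE 0.76) is a description, beside a median of -3.08 over 222 mature miRNAs. Of these 45, 20.3%, were lower and 4.05% higher. mir-214 (0, 0 and 1 rounded reads in serum) and miR-199a-5p (3, 0 and 0) also passed the filter through the pools alone. They were at -0.84 (edgeR adjusted p = 0.61) and -1.61 (edgeR adjusted p = 0.27), and neither was called. The call for mir-199a hangs on scaling: with library totals it was at -1.23 (edgeR adjusted p = 0.33), and the median of all precursors was -0.83. miR-199a-3p was then at -1.10 (edgeR adjusted p = 0.39). The mir-199a call was also lost without any of the serum libraries in turn, with edgeR adjusted p = 0.072, 0.11 and 0.10 for serum 1, 2 and 3, and without the skin pool, with 0.054. The fit of miR-199a-3p had an edgeR adjusted p of 0.055 without serum 2 and 0.064 without serum 3. Serum 1 held all 3 serum reads of miR-199a-5p, so without it the fit of that arm set the pools against libraries at 0 and gives no usable fold. Without the library labelled pancreas, mir-199a was at -2.21 (edgeR adjusted p = 0.032) and miR-199a-3p at -2.50.

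**Figure D4:**
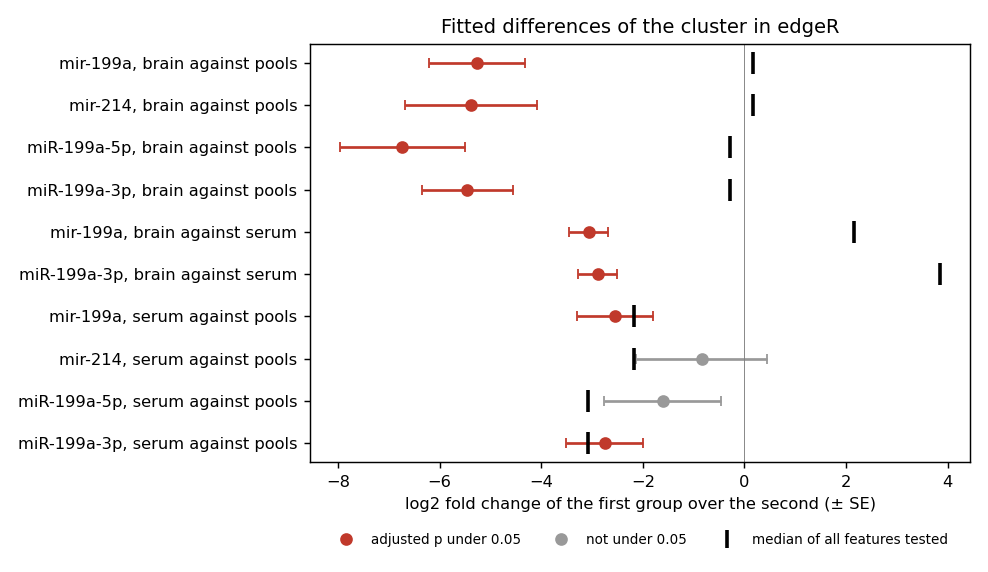
Log2 fold change ± SE of the cluster's tested members in the edgeR comparisons of brain, serum and the 14 pools, with the median of all features tested as a black bar. mir-199a and miR-199a-3p in brain lie far below the median. mir-214 and miR-199a-5p in brain, and mir-214 and both arms in serum against pools, passed the count filter through the pools alone. mir-199a in serum against pools also needed the pools to pass. mir-199a and miR-199a-3p in serum against pools sit near the median, at -2.55 beside -2.18 and -2.76 beside -3.08.

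The likeness of tissue profiles was described by Pearson's r of log2(RPM + 1) over the 15 tissues, brain as the mean of its 3 libraries, with no test, since the tissues share libraries and scaling across precursors. Of 293 other precursors, mir-214 had the highest r with mir-199a, 0.93, and mir-199a the highest with mir-214. Relative to its tissue median, mir-199a stood on the log2 scale at 2.13 in skin, 1.76 in muscle, 1.67 in fat, -1.74 in thymus and -3.51 in brain. mir-214 stood at 1.93, 1.79, 1.94, -2.75 and -3.21 in the same tissues. They parted most in small intestine, where mir-214 was at 1.19 and mir-199a at -0.10. Without brain r was 0.90 and without the library labelled pancreas 0.93. By Spearman's rho, 0.87, and also without brain, mir-23a came before mir-214.

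Next in likeness to mir-199a came mir-152 with r of 0.88 and mir-224 with 0.83, then mir-23a with 0.71 and mir-27a with 0.69. mir-152, a relative of mir-148 known for acting on the DNA methyltransferase Dnmt1, was highest in fat with 494 RPM, then skin with 470 and muscle with 330, and lowest in brain with 39.9 RPM. mir-224 was at 72.3 RPM in lung, 59.5 in muscle, 50.5 in skin and 38.8 in fat, and at 0 in all hemispheres. mir-23a and mir-27a, which belong to a single cluster, were both highest in skin, with 924 and 1753 RPM. For mir-214 the list was mir-199a, mir-152, mir-224, mir-23a and, at 0.66, mir-320. At the other end, mir-185 had r of -0.74 with mir-199a, the neuronal mir-124-1 -0.70 and mir-29b-2 -0.69, and for mir-214 these were mir-29b-2, mir-185 and mir-873. Each of these was highest in brain.

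The list of connective tissue and smooth muscle miRNAs did not move with the cluster as a whole. Its 10 members had a median r of 0.22 with mir-199a, against -0.04 over all 293 others. mir-152 stood apart at 0.88. The smooth muscle pair mir-143 and mir-145 had 0.43 and 0.51, and mir-21, a miRNA raised in fibrosis, -0.04. The 11 neuronal miRNAs had a median of -0.52 and all lay below 0. The 11 epithelial miRNAs had a median of -0.25, from -0.35 for mir-192 of the gut to 0.49 for mir-205 of the skin. The medians were 0.26 for the 4 striated muscle miRNAs that passed the filter out of 7, 0.17 for the 5 leukocyte miRNAs, 0.20 for the single endothelial miRNA kept of 2, and 0.08 for 2 of 3 erythroid miRNAs. Without the library labelled pancreas the medians were 0.24 for connective tissue and smooth muscle, -0.59 for neuronal, -0.24 for epithelial, 0.22 for striated muscle, 0.14 for leukocyte, 0.28 for endothelial and 0.13 for erythroid miRNAs, against -0.07 over all others.

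In the test of brain against the pools, 5 of the 10 connective tissue and smooth muscle miRNAs were lower in brain and none higher, where 18.6% of all precursors were lower and 24.1% higher. Their median log2 fold change was -2.69. Lower were mir-152 at -3.62, mir-143 at -4.38, mir-145 at -4.75, mir-21 at -4.84 and mir-10b at -4.51 (edgeR adjusted p = 0.00087 to 0.049). Not called were mir-22 at -1.77, mir-100 at -0.02, mir-99a at 0.11, mir-125b-2 at 1.17 and mir-125b-1 at 1.21. For both mir-125b precursors every hemisphere lay above every pool in RPM. All 11 neuronal miRNAs were higher, with a median of 8.07. Among them mir-124-1, mir-124-2 and mir-124-3 reached at most 1.52 RPM outside brain. They passed the count filter through the hemispheres alone, so their direction was fixed. mir-138-2 also had a pool median of 0 RPM. Of the 11 epithelial miRNAs 1 was lower, mir-203a, and of the 5 leukocyte miRNAs 3, namely mir-142, mir-223 and mir-146a. mir-223, at a mean of 1.41 RPM in brain, passed the count filter through the pools alone, so its direction was fixed. Of the endothelial 1 of 1 was lower, mir-126a, while none of the 4 striated muscle and 2 erythroid miRNAs tested passed. The median log2 fold changes of these lists were further below 0 than that of the connective tissue list in 4 cases, with -5.06 for epithelial, -3.43 for leukocyte, -6.25 for striated muscle and -7.09 for erythroid miRNAs, and -2.30 for mir-126a, and no difference between lists was tested. The value of mir-199a, -5.26, lay below those of all 10, a difference that was not tested. That of mir-214, -5.38, did too, but mir-214 passed the count filter through the pools alone, so its direction was fixed. In serum against the pools, 4 of the 10 were lower, where 16.9% of all precursors were, with a median of -1.71 beside -2.18 over all. The lists were drawn up with earlier results of these data known.

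**Figure D5:**
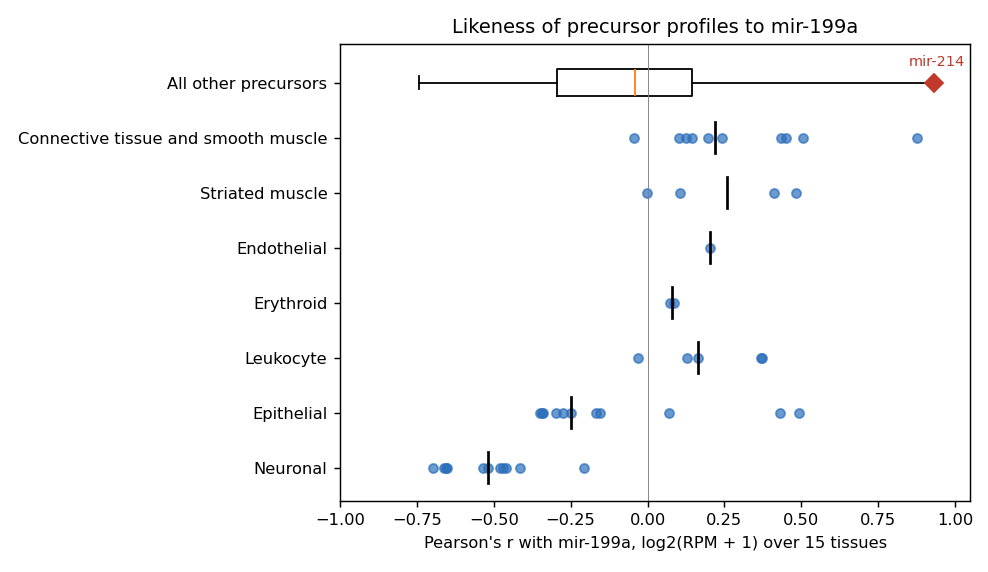
Pearson's r with mir-199a over 15 tissues for the members of each list (points, black bar at the median) and for all 293 other precursors (box from the lower to the upper quartile, line at the median, whiskers to the extremes). mir-214, the red diamond at 0.93, lies at the upper extreme, the neuronal miRNAs lie below 0, and the connective tissue and smooth muscle list has its median at 0.22.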

How the data were processed

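Small RNA of 20 rat libraries was sequenced on a MiSeq after TruSeq Small RNA preparation. The authors trimmed base calls under a quality of 20, aligned the reads to Rn5 and quantified them, with Partek and Bowtie named in the processing notes, and the values the authors deposited are estimated counts without normalization, for 1409 features under 3 annotations (388 RefSeq, 444 miRBase precursors, 577 mature miRNAs, miRBase release 21). RPM was taken within an annotation. Counts were rounded for the intervals and the tests. Tests used edgeR 4.0.16 (R 4.3.3), quasi-likelihood, TMM, a filter of 10 or more counts in 3 or more libraries, Benjamini-Hochberg over all features, threshold 0.05. Each SE was the fold change on the log2 scale over the square root of F. Likeness used log2(RPM + 1) over the precursors that passed this filter in the 17 tissue libraries. Intervals are Wilson intervals at 95%, and floors are 3 counts. Serum depth was at most 10862 precursor reads.

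The members and lists were chosen with earlier results of these data known. Named were the cluster and its arms, the 5 precursors most and the 3 least like each member, examples from the lists (connective tissue and smooth muscle, epithelial, leukocyte, neuronal, striated muscle, endothelial, erythroid), and tissue markers. Brain and serum share replicate numbers, and the tissues came from the same 3 rats. Deviations from group means of same-numbered libraries correlated at 0.10, -0.11 and -0.08 over 75 precursors. The labels name the brain and serum libraries as separate replicates, and p-values measure the spread between these. Alternatives were DESeq2 1.42.0, library totals, no count filter, each library left out, the replicate block, other scalings, pseudocounts, likeness measures and RefSeq counts. The tests were also run on simulated counts, with results not given here. Sequences and gene spans come from RefSeq for GRCr8. The coordinates apply to that build, not to Rn5. Figures used Matplotlib 3.10.9 in Python 3.11.15, with pandas 2.3.3, NumPy 2.4.6 and SciPy 1.17.1.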

Additional observations from a re-analysis of the deposited data

How the results depend on the processing

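The brain against pools calls of mir-199a and miR-199a-3p kept direction and threshold in the 21 and 20 alternatives run, with edgeR or DESeq2 adjusted p of at most 0.0047 and 0.0038. mir-199a lay between -5.44 and -5.08 and miR-199a-3p between -5.55 and -4.84 as libraries were left out in turn. mir-214, which moved from -5.38 to -7.53 without brain 1, and miR-199a-5p passed the filter through the pools alone, so their direction was fixed. The brain against serum calls of mir-199a and miR-199a-3p held as well (at most 0.0066 in 10 and 0.00015 in 7 alternatives), but without a hemisphere mir-199a moved from -3.06 to as little as -1.86 (without brain 3), and without serum 3 to -3.37. Without a hemisphere, miR-199a-3p could not be tested against serum, because it then no longer had 10 counts in 3 libraries. With the replicate block, the pairing of brain and serum by number, mir-199a was at -3.10 and miR-199a-3p at -2.92, 141 precursors and 125 mature miRNAs were called instead of 149 and 142, and no member's call changed. The serum against pools call of mir-199a held with DESeq2 but not throughout. With library totals mir-199a was at -1.23, no longer called, and miR-199a-3p at -1.10. mir-214 at 0.64 and miR-199a-5p at 0.070 then changed sign, while the median of all precursors moved from -2.18 to -0.83. Without a count filter mir-199a was at -2.30 (edgeR adjusted p = 0.056). Leaving out libraries in turn, mir-199a lay between -2.69 and -2.04, mir-214 between -7.31 and 0.11, miR-199a-5p between -9.56 and -0.96 and miR-199a-3p between -2.92 and -2.40. The -7.31 and -9.56 are fits against serum libraries at 0 reads and no bounds. The cause of these changes was not tested.

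Leaving out libraries in turn, the calls for brain against pools numbered 38 to 148 precursors and 39 to 140 mature miRNAs, for brain against serum 55 to 141 and 36 to 128, and for serum against pools 30 to 62 and 35 to 61. The low ends for brain came without a hemisphere, when fewer features were tested. With 10 RPM added in place of 1, the brain level against the tissue median was -1.24 for mir-214 (-3.21 with 1 RPM) and -3.11 for miR-199a-5p (-4.69), since both are at a few RPM in brain. On mature reads the log2 ratio of mir-199a to mir-214 was 10.83 in place of 6.89. Counting the mir-3120 reads as mir-214, chosen after seeing that they share reads, gave 6.82, and -5.44 for mir-214 in brain against pools. Leaving lung out of the 5p shares, also chosen after seeing the data, moved their median from 6.06% to 6.14%, as did leaving out pancreas. All values without pancreas were chosen after seeing the data, and its absence left the log2 ratio of mir-199a to mir-214 at 6.89.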
